A study of Mus musculus with 12 samples.

Results

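Gene expression was described in 3 wild-type (WT) mouse lungs of embryonic day 15.5 (E15.5), out of 6 lungs in the series. They were chosen by their genotype label, and each lung was sequenced in 2 runs, so that 6 of the 12 deposited samples were used and the runs of a lung were summed. The study was designed to set WT lungs against lungs in which Tgfbr2, the type II receptor of transforming growth factor beta (TGF-beta), was deleted in mesenchyme, the connective tissue that surrounds the airway epithelium. That comparison is not made here. The WT embryos are of strain C57BL/6 and came from the same breeding scheme, in which mice with a floxed Tgfbr2 allele were mated with Tbx4-rtTA/TetO-Cre transgenic animals, whose Cre depends on doxycycline and is driven in lung mesenchyme. The labels give the same doxycycline treatment for all samples, from E6.5 to E15.5, with 1 mg/ml in drinking water and a further dose through the food. The labels do not say which of these alleles the WT lungs carried, or whether they shared a litter. Whole lungs were frozen and RNA was taken from the entire organ, so in all values below fewer cells of a type and less RNA per cell cannot be told apart.

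At this age the mouse lung is a tree of branching epithelial tubes embedded in mesenchyme. The tips of the tubes hold dividing progenitors that later give rise to the gas-exchange epithelium, while the stalks behind them become conducting airway. Signals pass both ways between the layers: the mesenchyme makes FGF10 and WNT2, and the epithelium makes SHH and WNT7B. The mesenchyme also gives rise to airway and vascular smooth muscle, pericytes, fibroblasts and the cartilage of the large airways, and is threaded by a growing vascular network. Surfactant, which keeps air spaces open after birth, is secreted in quantity only late in gestation.

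Levels are given in TPM, transcripts per 1000000. A gene's count was divided by the length of its merged exons and scaled so that all genes of a lung sum to 1000000, and genes are therefore compared per length. Values are mean ± SD over 3 lungs (n = 3), or the values of WT replicates 1, 2 and 3 in that order. With a single group no p-value applies: 2 genes are said to differ only where their levels do not overlap over the 3 lungs, and an exact sign-flip test on 3 pairs could not fall below a two-sided p of 0.25. Neither this rule nor the SD covers error in the length a gene is divided by, which is the same in every lung.

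The lungs had 31983717, 51572845 and 45057871 gene counts. One count on a gene of 1000 bases was worth 0.118, 0.0742 and 0.0869 TPM. WT replicate 1 had counts on Xist and almost none on the Y chromosome, while WT replicates 2 and 3 had the reverse, so the lungs came from embryos of both sexes. Loci that collect ribosomal RNA reads took 1.87%, 1.34% and 0.916% of counts (95% Wilson intervals 1.867 to 1.876, 1.333 to 1.339 and 0.9135 to 0.9191, for counting error only) and were left out of the TPM total. WT replicate 3 stood apart from the other lungs. It held the highest of the 3 values in 53.8% of the 15780 genes with a mean of 1 TPM or more, and 503 genes were at least 1.5-fold above both other lungs in it, against 163 in WT replicate 1 and 101 in WT replicate 2. The median coefficient of variation (CV) between lungs was 7.64%, beside 3.09% from counting alone, and it was 4.64% without WT replicate 3. Single-gene means that move by over 1.5 times without it, and the sums of the lists it moves most, are given with their value without it or by lung.

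The lungs transcribed a broad set of genes. A level of 1 TPM or more was reached by 15659, 15786 and 15966 genes, and 14985 genes reached it in every lung, 13177 of them protein-coding. At the other end, 3962 of 21563 protein-coding genes had no count in any lung. RNA was spread unevenly: the 100 highest genes held 23.0 ± 0.932% of all TPM, and 50% of TPM lay in 783, 838 and 919 genes. Nuclear protein-coding genes made up 91.6 ± 0.283% of TPM, long non-coding RNAs 1.60 ± 0.0605% and pseudogenes 0.613 ± 0.0619%.

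The most abundant nuclear messages were those of the translation machinery. Of the 25 highest protein-coding genes, 14 encode ribosomal proteins and 2 encode elongation factors, and cytosolic ribosomal protein genes as a family held 9.95 ± 0.613% of all TPM. Rplp1, an acidic protein of the ribosomal stalk (chr9:61913284-61914542 on GRCm38), led with 7860, 7398 and 6908 TPM. Eef1a1, which delivers aminoacyl-tRNA to the ribosome, followed at 7276, 7167 and 6761 TPM. These top 2 genes overlapped in level, and Rps15, at 4856, 4794 and 4406 TPM, lay below both in every lung. WT replicate 3 had the lowest of the 3 values for 78 of the 80 ribosomal protein genes with a mean of 1 TPM or more, against 26.2% of all genes at that level.

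The rest of the top 25 held chaperone, cytoskeletal, matrix and cell-type-restricted genes, and Ptma, the nuclear protein prothymosin alpha, with 3035 ± 106 TPM. Hsp90ab1, a cytosolic chaperone, had 3308 ± 164 TPM. Actb, cytoplasmic actin, had 4049, 4159 and 3945 TPM, and Tubb5, a beta-tubulin, had 2637 ± 152 TPM. Tmsb4x and Tmsb10, thymosins that bind actin monomers, had 3265 ± 153 and 2116 ± 180 TPM, which did not overlap. Serpinh1, the collagen chaperone HSP47, had 2069 ± 119 TPM. Hbb-bs, an adult beta-globin, and Sftpc, surfactant protein C, were the cell-type-restricted genes of the list. Hbb-bs had 3563, 3263 and 4786 TPM. Sftpc had 3035, 2940 and 4709 TPM. Both were highest in WT replicate 3, with no overlap with the other lungs.

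**Figure D1:**
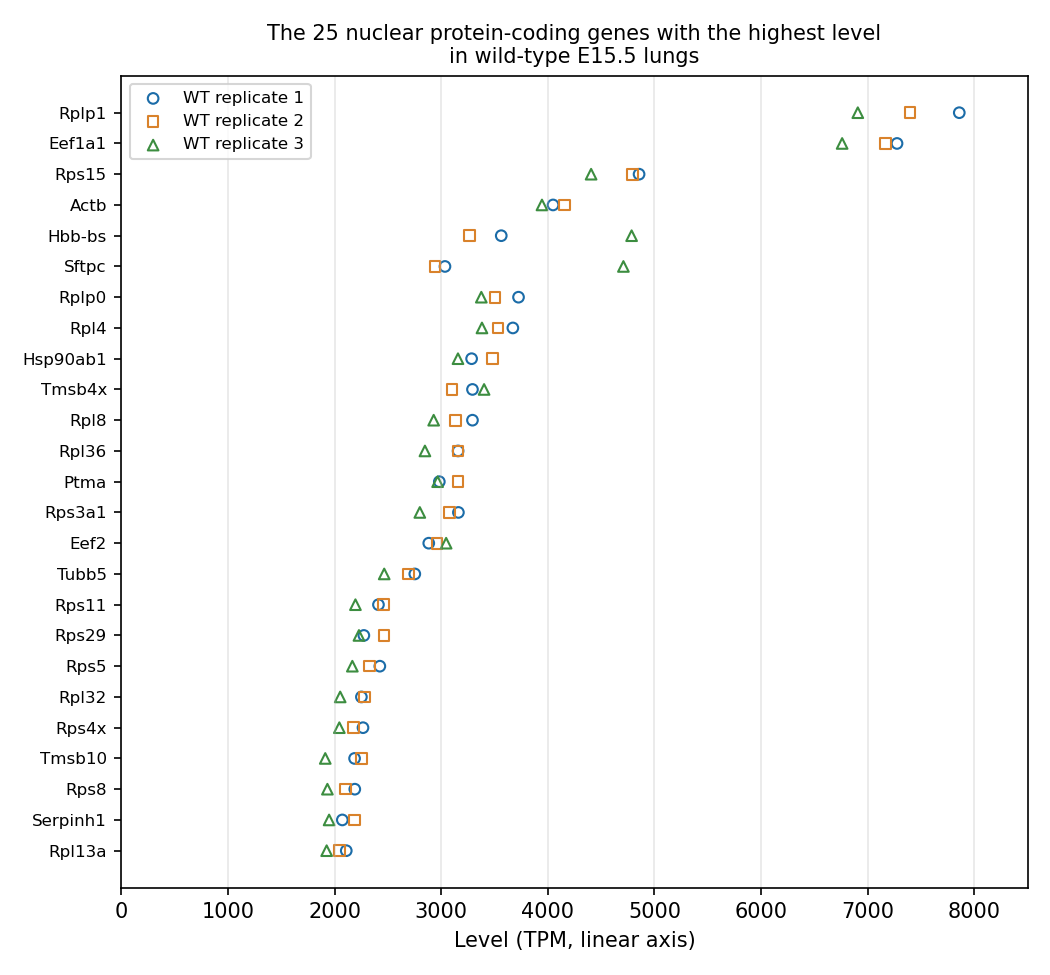
Level (TPM, linear axis) of the 25 nuclear protein-coding genes with the highest mean, from the highest at the top; each symbol is 1 lung. Rplp1 and Eef1a1 lie apart from the rest, and Hbb-bs and Sftpc are the 2 genes whose value in WT replicate 3 lies far to the right of the other lungs.

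Transcripts of the mitochondrial genome were the highest of all. The 13 mitochondrially encoded protein genes summed to 5.97 ± 0.406% of TPM, led by mt-Cytb, a subunit of complex III, with 16158, 15354 and 13565 TPM. The total is incomplete, because mt-Co2, mt-Co3, mt-Atp6, mt-Atp8 and mt-Nd4l are listed at 0 counts in all lungs although every cell uses them, and mt-Nd3 has 1, 1 and 4 counts. No level is read from these values.

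Epithelial markers were all present. Each of 15 pan-epithelial genes reached 10 TPM, and together they summed to 2528, 2561 and 2966 TPM. Epcam, an adhesion molecule of epithelia, led with 436, 471 and 459 TPM. Nkx2-1, the transcription factor that defines lung and thyroid fate, had 337, 361 and 462 TPM. The thyroid genes of the same lineage were near 0: thyroglobulin (Tg) had 0.0785 ± 0.0178 TPM and the 4 thyroid markers summed to 0.607 ± 0.305 TPM. Cldn6, a fetal claudin, had 326 ± 12.1 TPM and Cldn18, a claudin of lung and stomach, 206 ± 43.8 TPM. The simple keratins Krt18, Krt8 and Krt19 had 298 ± 18.9, 248 ± 31.5 and 176 ± 24.8 TPM, while Krt5 and Krt14 of stratified and basal epithelium had 0.287 ± 0.0618 and 0.271 ± 0.0242 TPM. Krt15, listed with Krt5 and Krt14 for proximal and basal airway, was higher, with 27.2, 22.4 and 25.6 TPM.

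Genes of the distal tip stood high in every lung. Id2, which marks tip progenitors, had 346, 337 and 368 TPM. Etv5, an ETS factor induced by FGF signalling, had 259, 269 and 269 TPM, and its relative Etv4 had 33.9 ± 2.39 TPM. Sox9, a tip factor, had 77.2 ± 6.03 TPM, Mycn had 67.5 ± 2.54 TPM and Bmp4 133 ± 8.77 TPM. Without Sftpc, the tip genes summed to 898, 921 and 963 TPM, a spread of a few percent. With it they summed to 4489 ± 1025 TPM, and to 3897 TPM without WT replicate 3, since Sftpc made up 79.3% of the list.

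The surfactant system was represented by a single dominant gene. Sftpc (chr14:70520949-70524081), which is expressed from early lung development on, had 3035, 2940 and 4709 TPM and ranked 14th of all genes. Sftpb, the other hydrophobic surfactant protein, had 78.9, 85.8 and 164 TPM, and the ratio of Sftpc to Sftpb was 33.8 ± 4.89. Abca3, which loads lipid into lamellar bodies, had 21.5, 24.9 and 49.3 TPM, and Sftpa1 had 15.0, 16.5 and 31.7 TPM. Each of these genes was highest in WT replicate 3, with no overlap with the other 2 lungs. Slc34a2, a phosphate transporter of type 2 cells, had 10.3 ± 9.53 TPM, and 4.83 TPM without WT replicate 3, and Sftpd was barely detected at 0.183 ± 0.147 TPM. The list without Sftpc summed to 202 ± 95.5 TPM over 3 lungs and to 147 TPM without WT replicate 3.

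Several markers of type 1 cells, the flat cells of gas exchange, were present. Ager had 91.5, 94.7 and 156 TPM, Pdpn 84.6 ± 10.9 TPM and Hopx 51.4, 44.2 and 86.5 TPM. Aqp5, the water channel of mature type 1 cells, had 0.617 ± 0.0589 TPM. Ager and Hopx were again highest in WT replicate 3.

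Airway differentiation was uneven between cell types. Scgb3a2, an early secretoglobin of airway epithelium, had 184, 150 and 315 TPM, whereas Scgb1a1, the defining gene of mature club cells, had 0, 0.156 and 1.46 TPM. Sox2, which marks the proximal airway, had 29.2, 26.7 and 25.1 TPM, lower than Sox9 in each lung. Trp63, the basal cell factor, had 1.14 ± 0.324 TPM. Foxj1, the master regulator of motile cilia, had 14.3, 12.2 and 42.2 TPM. Mcidas, which acts above Foxj1 in multiciliated cells, had 6.07, 7.46 and 17.7 TPM, and Rsph1, a radial spoke protein of the axoneme, had 4.05, 5.57 and 14.3 TPM. The outer arm dyneins Dnah5 and Dnah9 were below 1 TPM in every lung. The ciliated list summed to 135 ± 46.2 TPM, and to 108 TPM without WT replicate 3, in which all 9 members with a mean of 1 TPM or more were highest. Of the neuroendocrine markers, the peptide gene Calca and the granule gene Chga had 0.491, 0.749 and 1.03 TPM and 0.601, 0.619 and 0.536 TPM.

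Mesenchymal genes summed to 4956, 4664 and 5728 TPM over 15 markers, all at 10 TPM or more. Mfap4, a microfibril-associated protein, was the highest with 1158, 1048 and 1676 TPM, followed by the interstitial collagen genes Col3a1 (1061 ± 43.3 TPM), Col1a1 (765 ± 86.8 TPM) and Col1a2 (469 ± 46.6 TPM). The lung mesenchyme factors Tbx4 and Foxf1 had 273 ± 25.9 and 273 ± 9.66 TPM, which overlapped, and Tcf21 had 215 ± 18.2 TPM. Regulatory sequence of Tbx4 drives the rtTA used in this breeding scheme. Pdgfra, a marker of fibroblast progenitors, had 94.7 ± 6.93 TPM. Dcn and Lum, proteoglycans of mature connective tissue, had 72.5 ± 11.1 and 62.6 ± 8.84 TPM. Without the 6 matrix genes of the list, the remaining 9 markers summed to 1367, 1357 and 1451 TPM.

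Smooth muscle genes were among the steadiest of the lists, with a sum of 1918, 2062 and 2033 TPM. Acta2, smooth muscle actin, had 973, 1014 and 986 TPM and made up 49.4% of the list. Tagln, Actg2 and Mylk had 242 ± 3.97, 200 ± 14.9 and 192 ± 24.5 TPM. Myh11, the smooth muscle myosin heavy chain, had 135 ± 12.1 TPM, and Myocd, the coactivator that drives the contractile programme, 9.62 ± 1.52 TPM. For pericytes, the mural cells of small vessels, Pdgfrb had 131, 161 and 164 TPM, Notch3 74.0 ± 8.28 TPM and Cspg4 11.4, 12.6 and 17.9 TPM. Cartilage genes showed a split: the link protein gene Hapln1 had 60.7 ± 2.33 TPM and Col2a1, the defining collagen of cartilage, 21.4 ± 4.52 TPM, while aggrecan (Acan) and matrilin 1 (Matn1) had 0.186 ± 0.0199 and 0.128 ± 0.0900 TPM.

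All 16 endothelial markers reached 10 TPM, with sums of 1929, 1972 and 2167 TPM. WT replicate 3 was highest for 14 of the 16, against 53.8% of all genes at 1 TPM or more. Cdh5, VE-cadherin, led with 298, 307 and 353 TPM, ahead of Cldn5 (241 ± 11.1 TPM), the tight junction protein of endothelium, and Plvap (180 ± 9.73 TPM), which forms the diaphragms of fenestrae. Pecam1 had 163 ± 14.8 TPM and Kdr, the main VEGF receptor, 104 ± 9.15 TPM. Flt1, a VEGF receptor that acts largely as a decoy, was the lowest of the 16 at 15.0 ± 1.43 TPM. That place rests on its merged exon length of 13504 bases, by which 1589, 2640 and 2585 counts were divided. Sox17, with fewer counts in each lung, stood above it at 37.5 ± 5.73 TPM over 4772 bases. Of the lymphatic markers, Lyve1 had 96.9 ± 9.52 TPM, Mmrn1 66.3 ± 7.20 TPM and Flt4 23.2 ± 1.24 TPM. Prox1, the factor that specifies lymphatic fate, had 3.24 ± 0.300 TPM. Lyve1 is also made by macrophages and some blood endothelium. Ccl21a had no count in any lung. On its listed entry of 870 bases, 3 counts would give at most 0.408 TPM, a limit that holds only if its reads were counted.

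Leukocyte genes summed to 498, 472 and 483 TPM, one of the smallest spreads of any list, and the leading members were macrophage genes. Lyz2, lysozyme, had 123 ± 5.82 TPM, and the complement genes C1qb, C1qa and C1qc had 59.4 ± 0.963, 50.9 ± 2.09 and 31.3 ± 2.27 TPM. Csf1r, the receptor that macrophages depend on, had 22.9, 22.5 and 22.4 TPM. The neutrophil genes S100a8 and S100a9 had 13.7 ± 5.39 and 13.8 ± 4.91 TPM, and the T cell gene Cd3e had no count in any lung, which allows up to 0.0869 TPM by 3 counts. Pf4, a platelet chemokine, had 31.3 ± 1.98 TPM. Ptprc, the pan-leukocyte antigen CD45, had 1.12 ± 0.0352 TPM, from 167, 282 and 239 counts divided by a merged exon length of 18313 bases. With a shorter length its level would be higher.

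Red cell genes had the highest sum of any cell list, 8982, 7720 and 9297 TPM, of which globins made up 99.0 ± 0.167%. Erythroid genes outside the globins were modest: Alas2, the first enzyme of haem synthesis in red cells, had 52.2, 46.4 and 82.5 TPM, and Gata1 and Klf1, the factors that drive erythroid genes, had 1.40 ± 0.152 and 1.86 ± 0.401 TPM. At this age the embryo switches between 2 red cell lineages. Primitive cells from the yolk sac carry the embryonic globins Hbb-y, Hbb-bh1 and Hba-x. Definitive cells from the fetal liver carry Hbb-bs, Hbb-bt, Hba-a1 and Hba-a2. The adult genes are not taken here as exclusive to definitive cells, so shares of transcripts are not read as shares of cells. The lungs differed in the shares of embryonic and adult globin transcripts. Hbb-y had 1736, 1625 and 686 TPM, and Hbb-bs 3563, 3263 and 4786 TPM. Not every member followed this order: embryonic Hbb-bh1 had 12.1, 32.6 and 18.3 TPM, and adult Hbb-bt 1476, 983 and 1415 TPM. Embryonic genes made up 25.8%, 28.1% and 10.2% of the beta-like sum, and Hba-x made up 4.28%, 5.94% and 2.66% of the alpha-like sum. WT replicate 3 was lowest in both shares.

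The upstream sequences of 6 globin genes, Hbb-bh1 not among them, are shown because the embryonic and adult members of each cluster stand side by side here, on chr7 for beta and chr11 for alpha. Each line gives the 100 bases before the RefSeq transcription start on GRCm38.p6, 5′ to 3′ on the gene's own strand, and ends at the base before the start. Capitals mark TATAA between 45 and 16 bases before the start, and CCAAT on either strand (ATTGG on the printed one) anywhere in the 100 bases. No motif shares a base with another.
Hbb-bs (chr7:103827929-103828028, minus strand): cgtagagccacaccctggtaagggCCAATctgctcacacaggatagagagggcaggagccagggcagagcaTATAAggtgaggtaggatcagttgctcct
Hbb-bt (chr7:103813924-103814023, minus strand): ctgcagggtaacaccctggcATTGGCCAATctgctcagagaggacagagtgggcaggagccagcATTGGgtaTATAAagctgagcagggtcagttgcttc
Hbb-y (chr7:103853208-103853307, minus strand): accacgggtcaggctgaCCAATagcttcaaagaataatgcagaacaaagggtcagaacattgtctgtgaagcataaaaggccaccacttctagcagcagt
Hba-a1 (chr11:32283572-32283671, plus strand): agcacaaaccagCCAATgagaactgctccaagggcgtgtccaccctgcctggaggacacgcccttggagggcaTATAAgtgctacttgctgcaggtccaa
Hba-a2 (chr11:32296392-32296491, plus strand): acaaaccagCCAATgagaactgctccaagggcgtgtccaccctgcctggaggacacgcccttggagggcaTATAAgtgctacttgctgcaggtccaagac
Hba-x (chr11:32276500-32276599, plus strand): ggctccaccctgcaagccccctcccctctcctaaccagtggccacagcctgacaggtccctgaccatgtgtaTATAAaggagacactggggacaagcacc

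TATAA stood in its window in 5 of the 6 globin promoters, against 3.89% of the 32851 promoters in the RefSeq table, and CCAAT stood in 5 of the 6, against 18.9% of all. The adult genes Hbb-bs, Hbb-bt, Hba-a1 and Hba-a2 carried both, as did 0.889% of all promoters. Of the embryonic genes shown, each lacked 1: Hbb-y had no TATAA and Hba-x no CCAAT in these letters. These matches describe the sequence and say nothing of which factor binds. The promoters of Hba-a1 and Hba-a2 share a stretch of 297 bases, and the genes are near-identical copies. Of the distinct 50-base stretches of their annotated transcripts, 72.3% for Hba-a1 and 89.3% for Hba-a2 also occur in another gene, beside 53.2% for Hbb-bs and 58.3% for Hbb-bt and 0% for Hbb-y and Hba-x. No source used here says how the counting assigned such reads, so the levels of the adult genes, and the ratio of alpha-like to beta-like sums of 0.313 ± 0.0177, are uncertain.

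Smaller compartments were detected as well. For mesothelium, the outer lining of the lung, Upk3b had 54.6 ± 0.833 TPM, Aldh1a2 62.4 ± 8.90 TPM and Wt1 5.59 ± 1.12 TPM. The Schwann cell factor Sox10 was low, with 0.949 ± 0.487 TPM. Erbb3 led the list of neurons and Schwann cells with 59.5, 66.6 and 79.2 TPM, but lung epithelium also expresses it. Lists for neighbouring organs were also summed. Liver, thymus, and oesophagus with stomach summed to 8.67 ± 3.87, 6.23 ± 0.448 and 6.03 ± 1.91 TPM, and skeletal muscle to 17.6 ± 0.468 TPM. Lck made up 96.9% of the thymus sum, and 5 of the 6 thymus genes had a mean below 0.1 TPM. Mylpf and Tnnt3 made up 57.8% and 26.2% of the skeletal muscle sum, while Myod1 and Myog had 0.0212 ± 0.0367 and 0.101 ± 0.0652 TPM. The cardiomyocyte list summed to 218, 199 and 258 TPM, of which Actc1 and Myl7 were the bulk at 111 ± 6.43 and 84.1 ± 14.9 TPM. The other 8 cardiac genes together had 22.4, 24.5 and 42.0 TPM, and the ventricular gene Myl2 0.107 ± 0.101 TPM. Myl7 is an atrial gene, and how much of its level came from other tissue was not tested.

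**Figure D2:**
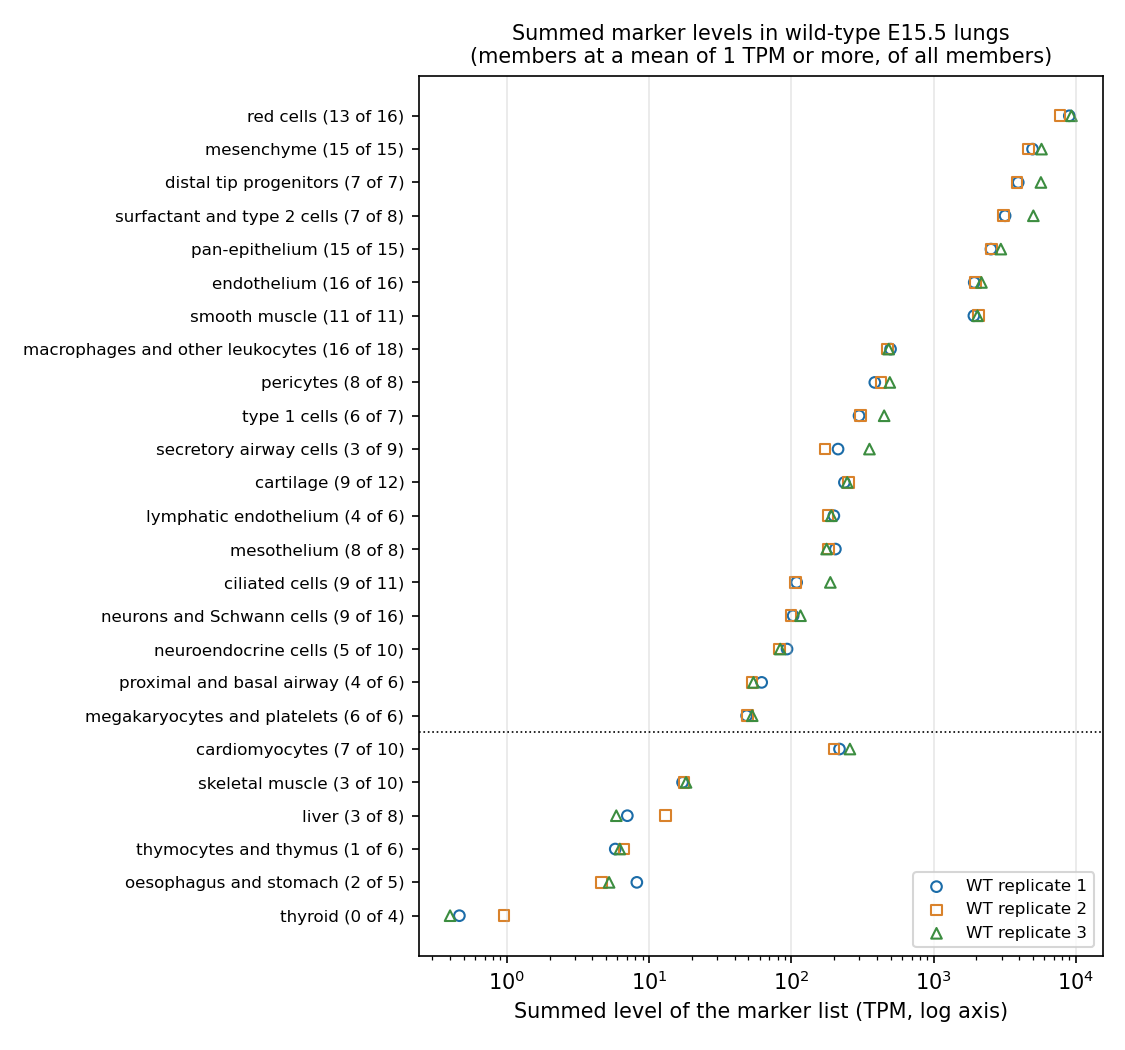
Summed level of each marker list (TPM, log axis), 1 symbol per lung, with the members at a mean of 1 TPM or more out of all members in brackets; lists of other organs lie below the dotted line. Red cells and mesenchyme lead, followed by the distal tip and type 2 lists, which share Sftpc, and by pan-epithelium. The type 2, secretory and ciliated lists show WT replicate 3 to the right of the other lungs, and the thyroid list sums to less than 1 TPM in every lung.

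Transcription factors were ranked over the Hox, forkhead, Sox, T-box, GATA, Kruppel-like and Iroquois families and a list of 28 lung lineage factors. Factors of other families entered only through that list, so a lead of lung factors follows in part from this choice. Tbx2, a T-box repressor of the lung mesenchyme (chr11:85832551-85841948), was the highest with 509, 482 and 570 TPM, above Nkx2-1 in every lung. After Nkx2-1 and Id2 came Tbx4, Foxf1, Hoxa5, Etv5, Tcf21, Sox12 and Tbx5, the last at 131 ± 2.96 TPM. Tbx4, Foxf1, Hoxa5 and Etv5 lay between 251 and 302 TPM in all lungs and cannot be ordered. Tbx4 lies next to Tbx2 on chr11 and Tbx5 is paired with Tbx3 on chr5, and in each pair the levels differed without overlap. Foxa2 and Foxa1, pioneer factors of endoderm, had 96.4 ± 7.02 and 75.7 ± 4.54 TPM. Gata6, a factor of lung epithelium, had 45.3 ± 1.93 TPM, below Gata5 at 82.2 ± 8.37 TPM. Of the Iroquois genes, Irx1, Irx3 and Irx2 had 99.5 ± 6.24, 95.4 ± 11.7 and 88.8 ± 9.34 TPM and overlapped.

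Hox genes, whose order along each chromosome matches the body axis, were used in a narrow window. The Hoxa and Hoxb clusters summed to 384 ± 27.9 and 245 ± 27.3 TPM, while Hoxc and Hoxd summed to 3.84 ± 0.984 and 1.79 ± 0.628 TPM. Genes numbered 4 to 6 held 80.6 ± 0.453% of the Hox sum. Hoxa5, required for normal lung and trachea development (chr6:52201754-52204587), alone made up 42.4% with 292, 265 and 251 TPM. Hoxb5 and Hoxb4 had 76.8 ± 8.79 and 70.2 ± 5.96 TPM and overlapped. The 16 genes numbered 9 to 13 in all clusters together had 1.89 ± 0.504 TPM. WT replicate 3 had the lowest Hox sum, 576 TPM, beside 681 and 647 TPM in the other lungs. Several Hox genes share exon sequence with antisense or read-through transcripts, Hoxb3 over 52.9% of its exon length, so single values in the clusters are less certain than the sums.

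**Figure D3:**
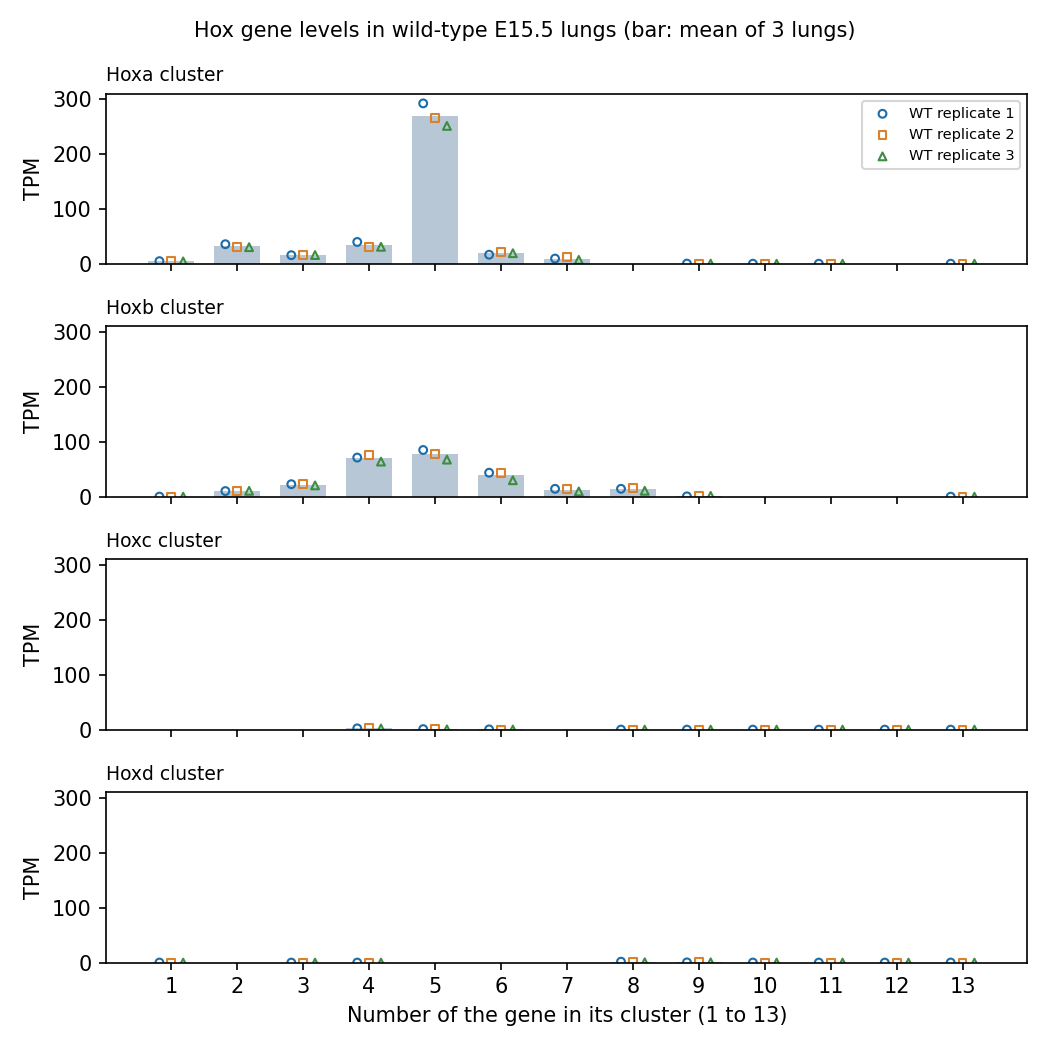
Level (TPM, linear axis from 0) of each Hox gene by its number in the cluster; bars are means of 3 lungs and symbols single lungs. Hoxa5 reaches a mean of 269 TPM, Hoxb5 and Hoxb4 reach means of 76.8 and 70.2 TPM, and the Hoxc and Hoxd bars lie near the baseline.

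Genes of TGF-beta signalling, the pathway the study disturbs, were expressed from ligand to effector. Its dimeric ligands bind TGFBR2, which recruits and activates TGFBR1, and the pair phosphorylates SMAD2 and SMAD3. Tgfbr2 (chr9:116084293-116175360, minus strand) had 90.1, 94.4 and 111 TPM. Tgfbr1 had 67.6, 68.7 and 71.5 TPM, below Tgfbr2 in every lung, at a Tgfbr2 to Tgfbr1 ratio of 1.42 ± 0.114. That order holds for merged exon lengths. The mean of Tgfbr2 was 74.6 TPM with the longest transcript and 111 TPM with the rescaled deposited RPKM, and Tgfbr1 was not recomputed. The endothelial members Acvrl1, a type I receptor, and Eng, a co-receptor, had 117 ± 17.1 and 116 ± 10.2 TPM, and overlapped. The co-receptor Tgfbr3 had 36.3 ± 4.27 TPM. All 5 receptors were highest in WT replicate 3. Of the ligands, Tgfb2 had 101, 101 and 106 TPM, Tgfb3 85.4, 90.7 and 84.2 TPM, and Tgfb1 20.8, 22.1 and 22.3 TPM. The order Tgfb2, Tgfb3, Tgfb1 held without overlap. Smad4, the shared partner, had 147 ± 3.20 TPM, Smad3 75.6 ± 2.99 TPM and Smad2 30.1 ± 0.119 TPM, and the inhibitory Smad7 had 34.9 ± 2.05 TPM. Fibrillins and latent TGF-beta binding proteins, which hold the ligands in the matrix, were led by Fbn2 with 260 ± 27.1 TPM, above Fbn1 with 159 ± 23.0 TPM and Ltbp3 with 67.4 ± 15.1 TPM.

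In the BMP branch, which signals through SMAD1, SMAD5 and SMAD9, Bmp4 was the leading true ligand with 124, 134 and 141 TPM. Bmp1, listed with them by name, is a collagen-processing protease and had 140 ± 8.51 TPM. Bmp5 had 53.3 ± 2.82 TPM and Bmp2 only 3.35 ± 0.792 TPM. The receptor Bmpr1a had 114 ± 2.68 TPM, ahead of Bmpr2 with 39.0 ± 4.02 TPM and Bmpr1b with 11.1 ± 0.665 TPM. Smad5 had 155 ± 5.34 TPM against 30.7 ± 1.84 TPM for Smad1. Among antagonists, the secreted glycoprotein gene Fstl1 had 726 ± 46.7 TPM and made up 89.3% of the list, while the classical BMP traps Nog, Chrd and Grem1 had 12.9 ± 0.957, 4.63 ± 0.575 and 0.989 ± 0.176 TPM.

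Among WNT ligands, Wnt2 and Wnt7b, made in opposite layers, were highest. Wnt2, a mesenchymal ligand that acts with WNT2B in lung specification (chr6:17988940-18030585), had 163, 161 and 153 TPM and made up 51.9% of the 19 ligands. Wnt7b, the epithelial ligand, had 72.6, 66.9 and 64.4 TPM. Wnt11 and the non-canonical Wnt5a had 25.3 ± 0.499 and 20.9 ± 2.66 TPM, and 9 of the 19 ligands were below 1 TPM. Fzd2 and Fzd1 led the receptors at 164 ± 1.57 and 158 ± 7.74 TPM. Axin2, a direct target of the canonical pathway, had 49.7 ± 2.45 TPM, and the nuclear partner Tcf7 had 127 ± 3.20 TPM against 10.9 ± 0.596 TPM for Lef1. Sfrp2 and Sfrp1, secreted antagonists, had 66.1 ± 12.4 and 43.4 ± 6.89 TPM, and the soluble antagonist Dkk1 had 0.656 ± 0.107 TPM. Wnt ligand sums varied by 2.46% between lungs.

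The 22 FGF ligands summed to 146 ± 16.7 TPM and the 5 receptors to 354 ± 47.1 TPM. Fgf10, the mesenchymal ligand that draws out epithelial buds, had 48.8, 49.7 and 56.1 TPM and made up 35.3% of the 22 ligands. Fgf1 and Fgf18 had 32.3 ± 8.51 and 19.3 ± 3.22 TPM, and Fgf9, made by epithelium and mesothelium, 6.15 ± 0.269 TPM. Fgfr2, the receptor for FGF10, had 95.9, 100 and 113 TPM, higher than Fgf10 in each lung. Fgfr4 had 39.1, 39.2 and 73.9 TPM, with WT replicate 3 apart from the other lungs. The response genes Dusp6 and Spry2, feedback inhibitors of the pathway, had 112 ± 4.77 and 58.3 ± 6.46 TPM.

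Hedgehog signalling rested on a single ligand. Shh, made by the epithelium (chr5:28456815-28467256), had 74.4, 78.4 and 87.1 TPM and 97.8% of the ligand sum, with Dhh and Ihh at 1.60 ± 0.209 and 0.219 ± 0.0837 TPM. On the receiving side, Smo had 124 ± 2.59 TPM and Ptch1, the receptor and itself a target, 91.0 ± 4.41 TPM. Gli1, the transcriptional target used as a readout, had 79.6, 87.9 and 85.1 TPM and was higher than Gli3 (44.2 ± 1.06 TPM) and Gli2 (26.9 ± 0.0879 TPM). Hhip, a decoy receptor in the mesenchyme around the tubes, had 36.0 ± 5.87 TPM.

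In the Notch pathway Notch2 and Notch3 were highest, at 88.7 ± 10.8 and 74.0 ± 8.28 TPM. Of the ligands, Jag1 and the endothelial Dll4 had 26.4 ± 4.88 and 25.3 ± 1.06 TPM and overlapped. Hes1, a general target, had 105 ± 4.78 TPM, and Hes5 had 0.0760 ± 0.0887 TPM. In the retinoic acid pathway, the synthesising enzyme Aldh1a2 had 71.5, 61.9 and 53.8 TPM, and the degrading enzymes Cyp26b1 and Cyp26a1 had 11.0 ± 2.37 and 0.240 ± 0.0215 TPM. Vegfa had 174, 187 and 193 TPM and made up 46.9% of the VEGF and angiopoietin ligands. The apelin receptor Aplnr, at 297 ± 13.4 TPM, was the highest receptor of that list, far above its ligand Apln at 52.7 ± 2.28 TPM. Pdgfa, which acts on myofibroblast progenitors, had 63.7 ± 5.95 TPM and Pdgfb, which recruits pericytes, 52.0 ± 4.41 TPM. In both PDGF receptors WT replicate 1 was lowest.

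Igf2, the fetal growth factor, had 864, 858 and 899 TPM, at a ratio to Igf1 of 12.1 ± 0.161. Igf2r, which removes IGF2, had 347 ± 24.4 TPM, and the signalling receptor Igf1r 12.8 ± 1.59 TPM. Binding proteins were abundant, with Igfbp2, Igfbp5 and Igfbp4 at 389 ± 21.4, 347 ± 9.11 and 265 ± 10.2 TPM. In the Hippo pathway, which reads tissue tension and density, Tead2 had 217 ± 10.1 TPM, and the coactivators Wwtr1 and Yap1 had 106 ± 7.91 and 96.8 ± 1.51 TPM. Their target Cyr61 had 37.6, 46.7 and 56.6 TPM, and the target Ctgf had 32.4 ± 5.56 TPM. WT replicate 1 was lowest for both. EGF family ligands were low, with Areg, the highest, at 9.83, 9.53 and 18.0 TPM.

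**Figure D4:**
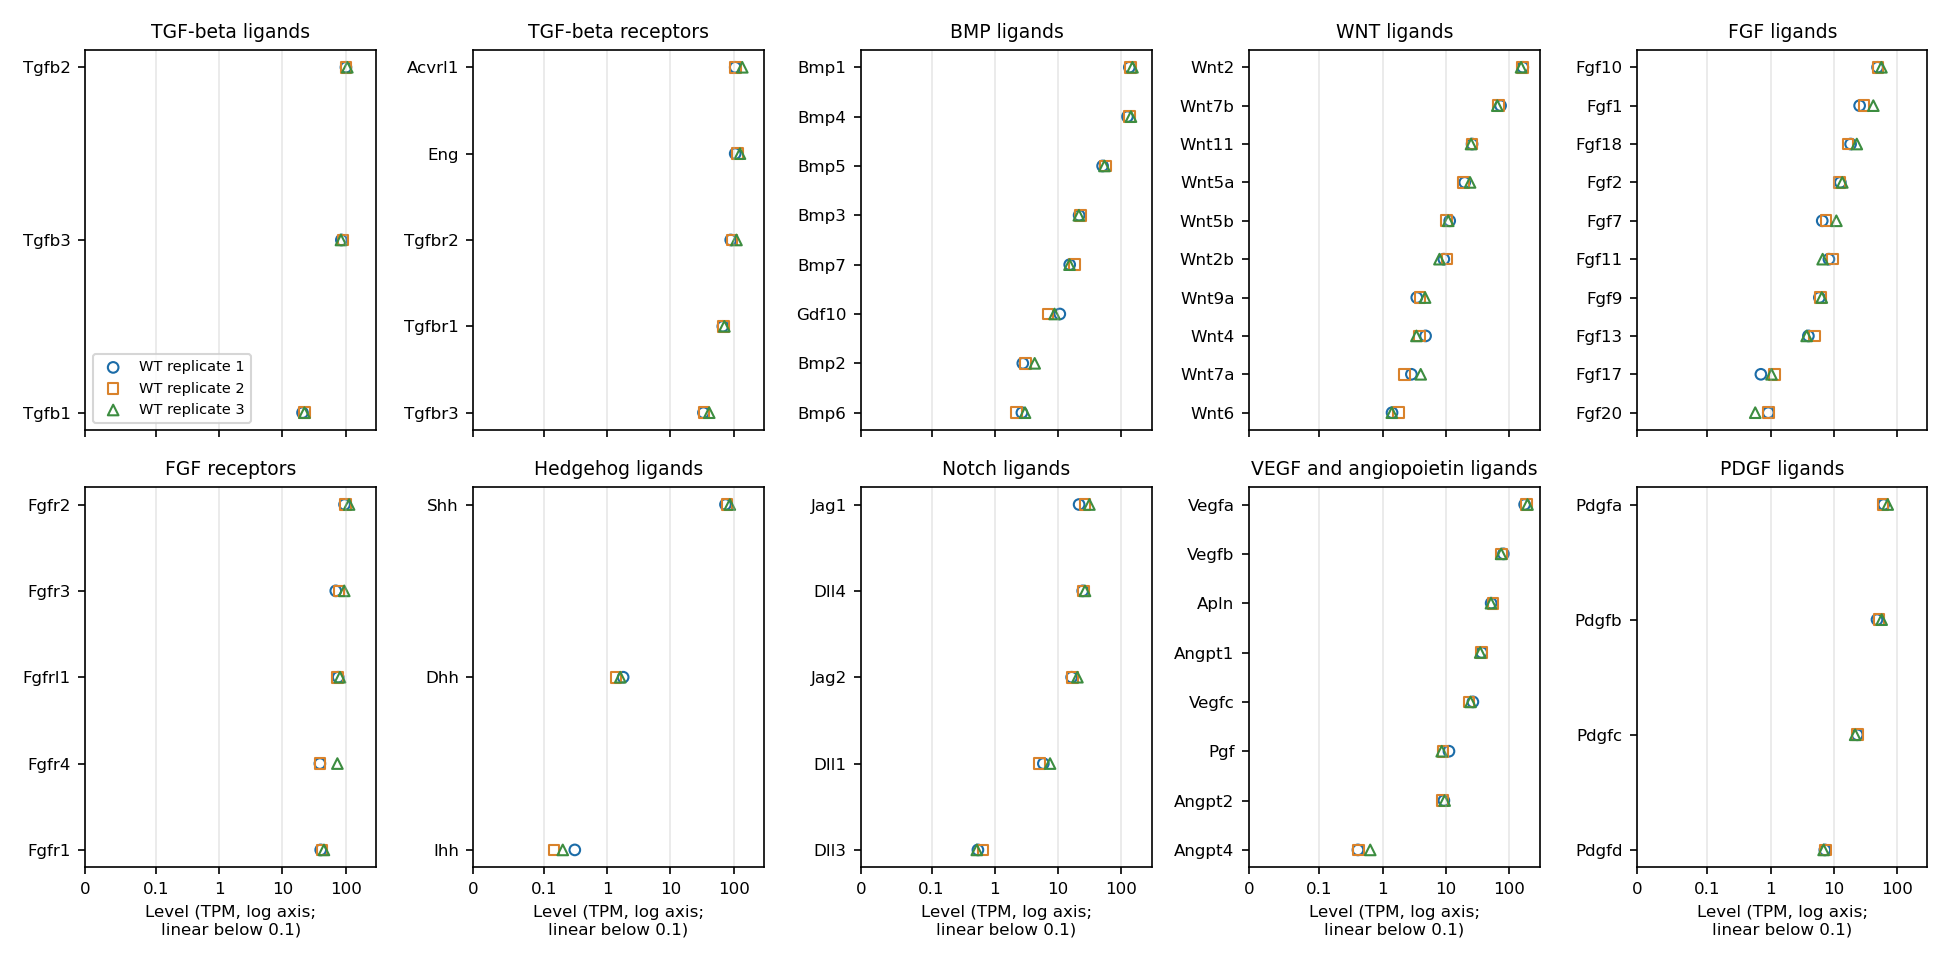
Level (TPM, log axis, linear below 0.1) of the members of 10 signalling lists at a mean of 0.1 TPM or more, at most 10 per list, ordered by mean; each symbol is 1 lung. Wnt2, Bmp4, Vegfa, Shh and Fgf10 sit at the top of their lists or beside it, and the lungs lie close together for most genes.

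Collagen chains summed to 5979, 6079 and 7190 TPM over 44 genes, 40 of which had a mean of 1 TPM or more. Chains of collagens I, III and V, which form fibres, made up 42.3 ± 2.32% of that sum. Col3a1 exceeded Col1a1 in every lung, by a ratio of 1.39 ± 0.101. Paired chains kept a near-constant proportion over the lungs: Col1a1 to Col1a2 was 1.67, 1.58 and 1.64, and Col4a1 to Col4a2, which share a promoter region, was 1.81, 1.83 and 1.81. Col4a1, of basement membrane, had 698, 778 and 948 TPM, and WT replicate 3 was highest for 19 of the 20 basement membrane genes, against 53.8% of all genes. The laminin chains Lamc1 and Lamb1, common to most laminins, had 460 ± 64.8 and 250 ± 27.0 TPM.

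Elastic fibre genes summed to 3720 ± 515 TPM, and to 3423 TPM without WT replicate 3. Eln, elastin, had 244, 264 and 354 TPM, and the crosslinking enzyme Lox had 420, 373 and 517 TPM. Mfap2, a microfibril protein, had 533 ± 11.7 TPM with no such excess. Among small leucine-rich proteoglycans Fmod led with 382 ± 27.7 TPM, above Bgn with 256 ± 24.1 TPM. Of the integrin chains, the receptors for this matrix, Itgb1, the common beta chain, had 899 ± 35.7 TPM and made up 57.1% of the family sum. The alpha chain Itga6, of laminin receptors, had 99.6, 106 and 126 TPM, and Itga8, of lung mesenchyme, 67.6 ± 5.90 TPM.

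Mitosis genes were all present and steady, with sums of 3159, 3214 and 3165 TPM, and Top2a, Mki67 and Ccnb2 at 399 ± 4.43, 365 ± 23.9 and 351 ± 4.48 TPM. DNA replication genes summed to 2838 ± 95.1 TPM, led by Pcna at 375 ± 19.8 TPM, and 14 of 16 were lowest in WT replicate 3, against 26.2% of all genes. Cdk4, the kinase of the G1 phase, had 816 ± 52.7 TPM and its cyclins Ccnd1 and Ccnd2 177 ± 5.72 and 131 ± 3.61 TPM. Of the inhibitors, the imprinted Cdkn1c had 837, 753 and 843 TPM and made up 82.9% of its list, whereas Cdkn1a, a p53 target, had 7.72, 7.88 and 11.4 TPM and Cdkn2a, linked to senescence, 0.524 ± 0.319 TPM.

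Imprinted genes, which are expressed from 1 parental copy and often govern fetal growth, summed to 10421, 10081 and 10746 TPM over 22 members, all at 1 TPM or more. H19, a maternally expressed non-coding RNA, had 4713, 4353 and 4871 TPM, ranked ninth of all genes, and exceeded its neighbour Igf2 by a ratio of 5.31 ± 0.212. The paternally expressed genes Mest, Nnat and Dlk1 had 857 ± 12.6, 538 ± 39.8 and 434 ± 32.5 TPM, and Grb10, a growth inhibitor, 941 ± 25.2 TPM. Apart from H19, the named long non-coding RNAs were much lower. Gas5, a host of small nucleolar RNAs, had 308 ± 29.0 TPM, Malat1, of nuclear speckles, 257 ± 31.4 TPM, and Fendrr, the neighbour of Foxf1, 137, 166 and 186 TPM. Xist, which coats the inactive X chromosome, had 407, 0.170 and 0.169 TPM. Cct6a, a chaperonin subunit, is typed as non-coding in the annotation and had 478 ± 28.9 TPM.

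Several glycolysis genes were highest in WT replicate 1 and lowest in WT replicate 3. Ldha, lactate dehydrogenase, had 856, 737 and 616 TPM, Pkm 803, 746 and 645 TPM and Aldoa 427, 366 and 303 TPM. Of the glycolysis genes at 1 TPM or more, 12 of 16 were lowest in WT replicate 3, against 26.2% of all genes, and the list summed to 4070, 3698 and 3198 TPM. Slc2a1, the glucose transporter, showed no such order, with 88.8, 80.7 and 84.4 TPM. For lung liquid, the chloride channel gene Ano1 had 73.1 ± 12.2 TPM, and the sodium channel subunits Scnn1a and Scnn1g had 6.93 ± 2.83 and 17.8 ± 0.873 TPM. Scnn1b, the remaining subunit, had 10.5, 12.2 and 12.7 TPM.

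Several list sums differed between the lungs. In WT replicate 3 the sum was 1.84 times the mean of the other lungs for secretory airway cells, 1.74 times for ciliated cells, 1.60 times for surfactant and type 2 cells and 1.48 times for type 1 cells. Single genes carry 2 of these sums: Scgb3a2 made up 87.8% of the secretory list, of whose 9 members 3 reached 1 TPM, and Sftpc made up 94.6% of the type 2 list. The other airway lists did not share the direction, with 0.944 times for proximal and basal airway and 0.949 times for neuroendocrine cells. It was 0.823 times for glycolysis, 0.867 times for Hox genes and 0.900 times for cytosolic ribosomal proteins. Endothelium, smooth muscle, leukocytes and mitosis lay between 0.993 and 1.11 times. Of the 19 cell lists, 12 had their highest sum in WT replicate 3, near the 53.8% of all genes highest there, and 12 had a CV below 10%. The share of ribosomal RNA loci, depth and embryo sex also differ between these lungs, and their part in the spread was not tested.

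**Figure D5:**
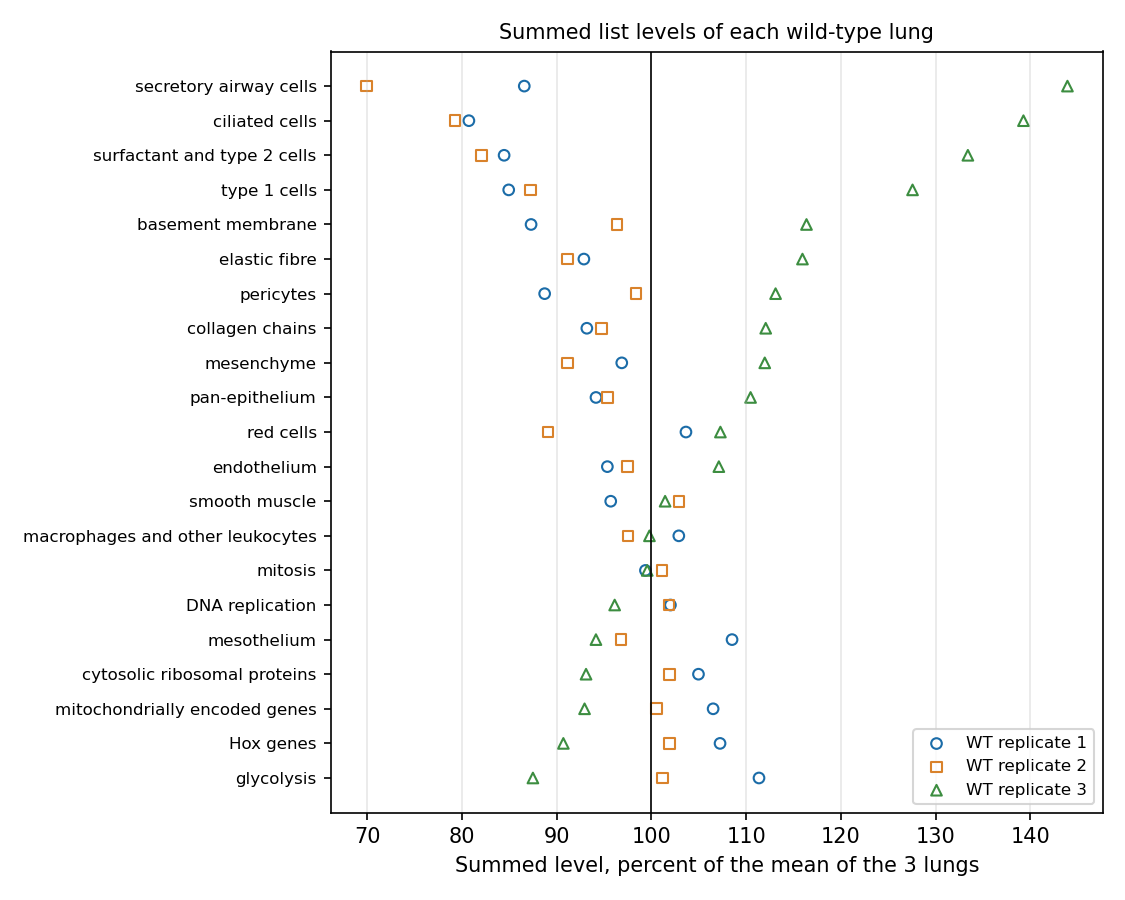
Summed level of 21 lists in each lung as percent of the mean of the 3 lungs, ordered by WT replicate 3. WT replicate 3 (triangles) reaches 144% for secretory airway cells and 87.5% for glycolysis, while mitosis and leukocyte sums lie within 4% of the mean in every lung.

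Predicted-gene symbols and ribosomal protein pseudogenes were left out of the ranking by CV, among them Gm13225 with a CV of 173%. Among the 10 most variable of the remaining genes with a mean of 5 TPM or more, 9 are described. Xist and the Y-linked Uty, Ddx3y and Kdm5d separated the sexes, with 0, 62.6 and 67.8 TPM for Ddx3y. Lrrc23, Zmynd10 and Dynlrb2, all parts or assembly factors of motile cilia and dynein, were high in WT replicate 3, as were Sec14l3 and Slc34a2. Lrrc23 had 5.32, 7.06 and 35.4 TPM, and Zmynd10 1.83, 3.28 and 10.6 TPM. Rps13-ps1, a ribosomal protein pseudogene on chr8 that was chosen after its values were seen, had 0, 328 and 307 TPM. Counts on a pseudogene can come from a near-identical parent gene. At the other extreme Smc3, a cohesin subunit, had 178 TPM in all 3 lungs, and Cdc20, a mitotic activator, 316, 319 and 316 TPM.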

How the data were processed

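RNA from WT lungs was sequenced from Illumina TruSeq v2 libraries, per the labels. The submitters' processing notes name cutadapt 1.13, Trimmomatic 0.35, STAR 2.5.2b, HTSeq 0.6.1p2, edgeR 3.16.5 and build GRCm38. The authors deposited raw read counts per gene and run, and RPKM values. Strand setting and treatment of reads that match several genes are not given in the sources used here.

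The counts of the 2 runs were summed per lung and divided by the merged exon length of GENCODE M21, in which 46574 of 47069 genes (98.9%) were found. Per the file headers the authors used GENCODE M8. The deposited RPKM was used only as an alternative, since its gene length was a median of 1.60 times the merged length over 19950 genes with several transcripts. TPM was computed over 40149 genes, leaving out loci under 200 bases, ribosomal RNA and mitochondrial tRNA types and 10 listed loci that collect ribosomal RNA reads. That choice of loci was made after the values were seen. Low genes rest on few counts, and one count on 1000 bases sets the precision. Python 3.11.15, pandas 2.3.3, R 4.3.3, edgeR 4.0.16 and DESeq2 1.42.0 were used, the R packages for alternative scalings only, and the computation of levels was tested on simulated data. The authors' deposited table of comparisons was not used here.

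Members and gene lists (80 lists) were chosen with earlier results of these data known. Genes named were Tgfbr2, the 25 highest protein-coding genes, the 6 highest members of each list and the first 3 of each cell list. Also named were the 10 most variable genes, without predicted-gene symbols or ribosomal protein pseudogenes. The 10 highest transcription factors of the listed families and the 10 highest long non-coding RNAs without such symbols were added. Other genes in the text, most of them low members of a list, were chosen after their values were seen. The labels do not say that the lungs came from separate litters, so the SD measures only the spread between these samples. Some genes that the rule for named genes covers are not reported here.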

Additional observations from a re-analysis of the deposited data

How the results depend on the processing

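Of 79 recomputed values, 60 moved by less than the SD between lungs, or by less than 1.5 times for the number of genes at 1 TPM and the median CV, and 19 moved by more. With all loci in the denominator, an alternative chosen after seeing the data, Tgfbr2 had 84.6 TPM, 50% of TPM lay in 528 genes, and the sums were 1735 TPM for endothelium, 4392 for mesenchyme, 2306 for pan-epithelium and 7425 for red cells. With the deposited RPKM rescaled to TPM, Tgfbr2 had 111, 50% lay in 636 genes, and the sums were 1796 for endothelium, 2933 for pan-epithelium and 7524 for red cells. With the longest transcript as length, Tgfbr2 had 74.6 TPM, pan-epithelium 2151 and red cells 7424. With nuclear protein-coding genes only, 50% lay in 971 genes, endothelium had 2207 TPM and pan-epithelium 2930. These settings change the length or the total a level is divided by. Leaving out each lung in turn gave 92.2 to 103 TPM for Tgfbr2, 15722 to 15876 genes at 1 TPM, 810 to 878 genes for 50% of TPM, and a median CV of 4.64 to 8.26%. It gave sums of 1950 to 2070 TPM for endothelium, 4810 to 5342 for mesenchyme, 2545 to 2764 for pan-epithelium and 8351 to 9139 for red cells. The lowest CV was that without WT replicate 3. Over genes at a mean of 0.1 TPM or more the median CV was 12.1%. Of the 25 highest genes, 23 were among the 25 highest with the longest transcript and 14 with the deposited RPKM, so ranks near each other depend on the length used. No paired analysis was possible because the lungs form a single group.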
